A study of Mus musculus with 24 samples.

Results

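The insulin and IGF-1 signalling chain and the FoxO transcription factors at its end were followed in cultured mouse muscle through 10 genes. They were chosen by symbol from the gene tables: Foxo1, Foxo3, Foxo4, Insr, Irs1, Irs2, Pik3r1, Akt1, Akt2 and Eif4ebp1, or 10 of the 56941 genes listed. All 10 had enough counts to be tested, among 13315 genes tested in all.

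The cells were C2C12, an established mouse myoblast line that fuses into contractile myotubes, carrying the light-gated ion channel ChR2 tagged with tdTomato in every group, controls included. Sheets of these cells on fibrin were differentiated for about 2 weeks in medium that held 10% inactivated horse serum with IGF-1 added at 50 ng/ml, so the ligand of the pathway was present in all 4 groups. Blue light was applied for 60 min each day at 1, 4 or 10 Hz to make them contract, and the control was not stimulated. The authors report spontaneous twitching in all conditions, so the control was not free of contraction. They also raise the possibility that cultures at 10 Hz tired and did not contract for much of the session. Each group had 6 biological replicates, or 24 libraries in all, and the contrast of interest was each frequency against the control and the frequencies against each other. The control received no light, so light and contraction cannot be told apart here. All 24 cultures came from 1 engineered line, and p-values refer to the spread between these cultures.

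Insulin and IGF-1 bind receptor tyrosine kinases, which phosphorylate the adaptors Irs1 and Irs2. These recruit phosphatidylinositol 3-kinase (PI3K), whose lipid product brings Akt to the membrane and activates it. Active Akt phosphorylates FoxO proteins and keeps them out of the nucleus, and it relieves repression of protein synthesis through mTORC1, which acts on the translation repressor 4E-BP1 (gene Eif4ebp1). In muscle, FoxO factors in the nucleus switch on genes of protein breakdown and autophagy, and they also activate genes of the chain itself, among them Irs2 and Insr. The measurements here are RNA levels, and none of these phosphorylation steps was measured.

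RefSeq promoter windows (250 bases before to 50 after a start, GRCm38.p6) were given for 7 of the 10 genes, in 12 windows, all of which matched GRCm39 once. They were searched on both strands for the core of the FoxO binding motif (GTAAACA), the palindromic E-box CACGTG, and TGACGT, part of the cyclic AMP response element, whose 2 strands can share letters. Among the bases before the starts, 3 matches were found, and each is shown with its flanks to 30 bases, 5′ to 3′ on the strand of the gene and with the motif in capitals. The first pair is shown because Irs1 and Irs2, the adaptors whose values are compared below, hold the same E-box, and the last because it was the only match to the FoxO core.
Irs1 E-box: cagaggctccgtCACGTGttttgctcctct
Irs2 E-box: gtaacgcagagtCACGTGttgttttgctct
Akt1 FoxO core, reverse strand: atctaccctctTGTTTACactcctggtgaa
The Irs1 stretch is chr1:82269258-82269287 on the minus strand of GRCm39, with the motif 115 to 110 bases before the RefSeq start and inside an Irs1 exon of GENCODE M39. The Irs2 stretch is chr8:11058956-11058985, also on the minus strand and inside an annotated exon of its gene, with the motif 44 to 39 bases before the start. The Akt1 stretch is chr12:112641461-112641490, minus strand, 161 to 155 bases before one of its RefSeq starts. Of all 32851 windows, 7.15% held CACGTG, 3.65% GTAAACA and 7.51% TGACGT. These shares were counted over whole windows, with the 50 bases after the start, and the matches above only over the bases before it. All of these are letter matches in short windows, and binding was not measured.

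The libraries held 8052369 to 18159144 estimated counts. Levels are given as CPM, counts scaled to a library of one common size, by edgeR's TMM factors, and levels of different genes are compared only in TPM, the transcript share of a library per unit of length. Changes are log2(fold change), first group minus second, from edgeR's quasi-likelihood test with Benjamini-Hochberg adjustment over all genes tested, and a gene was called at an adjusted p under 0.05. All 10 myotube markers were present in every library (summed level 8300 to 14900 CPM). Of 6 fat cell markers 2 passed the filter (summed level 38.7 to 62.2 CPM), and the defining Adipoq, Plin1 and Lep were at 0 in 20, 21 and 20 of the 24 libraries. Of 5 macrophage markers 1 passed (39.9 to 74.0 CPM), and Ptprc and Adgre1 were at 0 in 22 and 23. The summed level of 6 myoblast and cell cycle markers was 34.3 to 54.6 CPM in the controls, 51.4 to 80.0 at 1 Hz, 47.7 to 58.8 at 4 Hz and 43.3 to 65.7 at 10 Hz. Within the sum, Myf5 rose most (mean 12.6 CPM in the controls, 31.4 at 1 Hz and 28.3 at 4 Hz). Cdk1 also rose, from 8.88 to 13.7 and 12.8 CPM. Pax7 fell from 6.06 to 2.07 and 2.09, and Mki67 and Ccnb1 fell at 4 Hz. Top2a was not called at 1 or 4 Hz. The part of these shifts in the results was not tested, and in bulk RNA fewer cells of a type and less RNA per cell cannot be told apart. Mitochondrial genes took 3.97% to 8.9% of counts in 4 libraries (1 Hz replicates 4 and 6, 4 Hz replicates 3 and 6) and 0.545% to 2.72% in the other 20. Calls and counts of the 10 genes and of the lists that change without those 4 are given both ways for the comparisons with the control.

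At 1 Hz, 5 of the 10 genes were upregulated and 0 downregulated, where 19.2% of all genes tested were upregulated and 37.3% were called in either direction, 18.1% downregulated. The 5 were Foxo1, Foxo3, Irs2, Pik3r1 and Eif4ebp1. At 4 Hz, 8 were upregulated, against 27.5% of all genes (51.4% in either direction, 23.9% downregulated), and the exceptions were the kinases Akt1 and Akt2. The median change of the 10 genes was 0.35 at 1 Hz and 0.52 at 4 Hz, against 0.04 and 0.06 over all genes tested. With the added condition of an absolute log2(fold change) over 0.5, 3 remained at 1 Hz (7.19% of all genes were that far up) and 5 at 4 Hz (12.8%).

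At 10 Hz, 0 of the 10 passed, where 0.0376% of all genes did. By an unadjusted p under 0.05, edgeR gave 1, Eif4ebp1, and 1074 genes in all. DESeq2 and limma also called 0. The median change of the 10 was 0.02, against 0.01 over all genes. These 3 comparisons share their 6 control libraries, so they are given side by side and not as independent repeats.

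**Figure D1:**
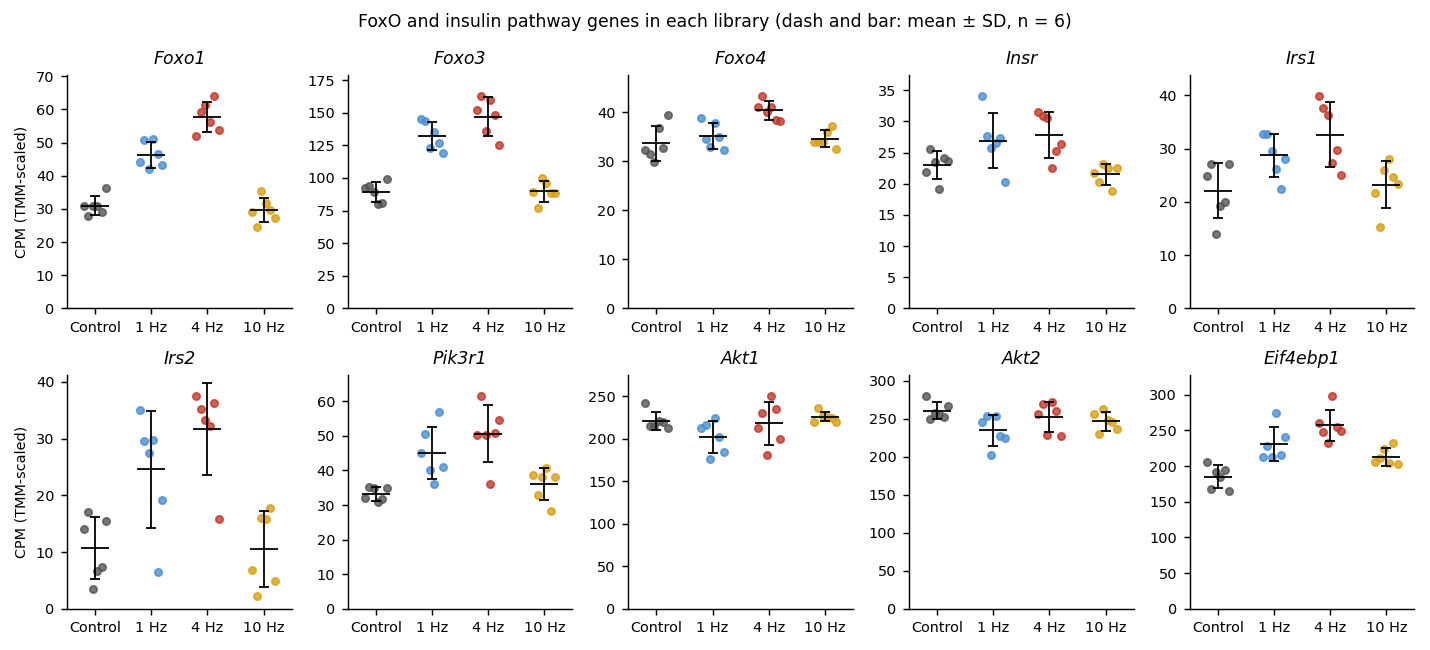
Level of each of the 10 genes in each library, in CPM on TMM scaling, with the vertical axis from 0 and the groups along the horizontal axis. Points are libraries, and the dash and bar are the mean and SD of 6. For Foxo1, Foxo3, Pik3r1 and Eif4ebp1, all 6 points at 1 Hz and at 4 Hz lie above all 6 controls, whereas for Akt1 and Akt2 the groups overlap. Of all genes tested, 5.55% at 1 Hz and 12.9% at 4 Hz lay above the controls in this way.

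**Figure D2:**
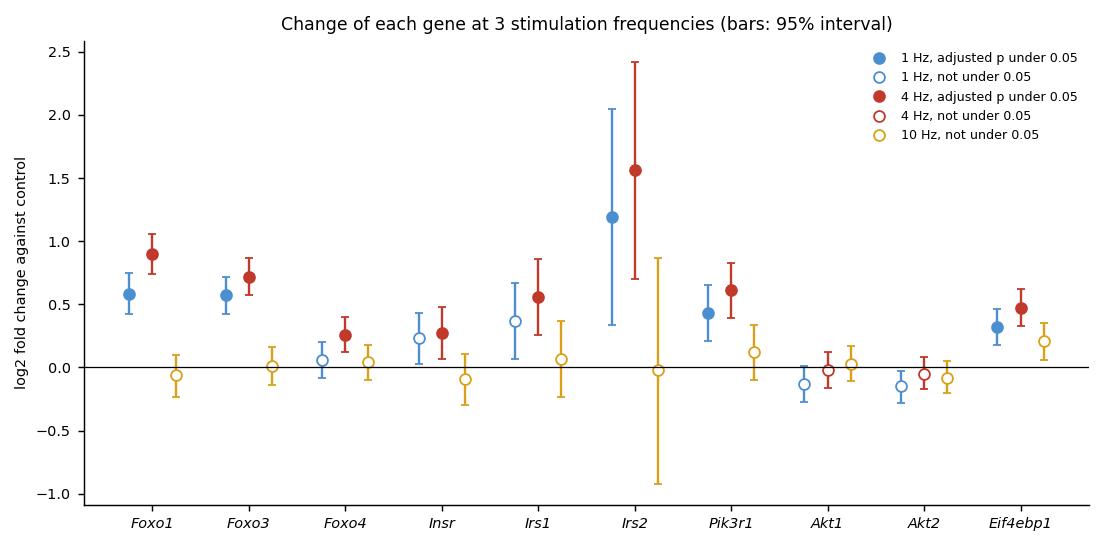
The log2(fold change) of each gene against the control at 1, 4 and 10 Hz, with 95% intervals from the edgeR fit. Filled points have an adjusted p under 0.05, which 5 genes reached at 1 Hz, 8 did at 4 Hz and 0 at 10 Hz, and the intervals for Irs2 are the widest.

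The insulin receptor gene Insr (ENSMUSG00000005534, chr8:3172061-3329647, minus strand, 21 exons) was measured at 19.2 to 25.5 CPM in the controls (median 23.6), 20.3 to 34.1 at 1 Hz (26.9), 22.6 to 31.5 at 4 Hz (28.4) and 18.8 to 23.2 at 10 Hz (22.1). At 1 Hz 5 libraries and at 4 Hz 4 libraries were above every control, and the remainder lay among the controls. Insr was upregulated at 4 Hz by 0.27 (SE 0.103, adjusted p = 0.027). That call did not hold without control replicate 3 or 4 or without 4 Hz replicate 1, 2 or 3 (adjusted p 0.053 to 0.11), nor without the 4 libraries rich in mitochondrial counts (0.24, adjusted p = 0.057). At 1 Hz the change was 0.23 (adjusted p = 0.081), but 0.33 (adjusted p = 0.018) without those 4 libraries and called also without 1 Hz replicate 6 alone (adjusted p = 0.036). At 10 Hz it was -0.09, with an interval of -0.3 to 0.11.

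The related receptor gene Igf1r, whose product binds the IGF-1 in the medium, rose at both 1 Hz (0.39, adjusted p = 0.0022) and 4 Hz (0.42, adjusted p = 0.00071). Its mean level was 18.8 ± 1.84 CPM in the controls and 25.2 ± 1.03 at 4 Hz (SD, n = 6). All 6 libraries there were above the controls, as for 12.9% of all genes tested. Within libraries, the log2 ratio of Insr to Igf1r in TPM was 0.43 ± 0.28 in the controls, 0.46 ± 0.22 at 1 Hz and 0.31 ± 0.47 at 4 Hz. The difference at 4 Hz was -0.12 (exact permutation test of 6 against 6, two-sided, adjusted p = 0.84 over 15 ratio tests). In the list of 5 receptors and ligands outside the 10, 4 were tested, and beside Igf1r only Igf1 was called. Igf1, the muscle's own ligand gene, fell by 0.93 at 1 Hz (adjusted p = 0.023) from a low control mean of 1.55 CPM, a call that was lost without the 4 libraries rich in mitochondrial counts, whereas Igf2 was then called lower at 4 Hz. On log2(TPM + 1), 0 genes of that list rose at 1 or 4 Hz.

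Irs1 and Irs2 encode the main adaptors between these receptors and PI3K. Irs1 (ENSMUSG00000055980, chr1:82210822-82269338, minus strand) had 14.0 to 27.1 CPM in the controls (median 22.4), 22.5 to 32.8 at 1 Hz (28.8), 25.1 to 39.9 at 4 Hz (33.0) and 15.3 to 28.0 at 10 Hz (24). At 4 Hz 5 of 6 libraries were above every control. Irs1 rose at 4 Hz by 0.56 (SE 0.152, adjusted p = 0.0037). At 1 Hz the change was 0.37 (adjusted p = 0.055), which passed without control replicate 2, control replicate 6 or 1 Hz replicate 5 (adjusted p 0.028 to 0.034). On log2(TPM + 1) limma called Irs1 at neither 1 Hz (0.15, adjusted p = 0.49) nor 4 Hz (0.20, adjusted p = 0.30).

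Irs2 (ENSMUSG00000038894, chr8:11034681-11059499, minus strand) varied most. It had 3.47 to 17.0 CPM in the controls (median 10.8), 6.44 to 35.1 at 1 Hz (28.5), 15.8 to 37.5 at 4 Hz (34.3) and 2.26 to 17.7 at 10 Hz (11.3). At both 1 and 4 Hz, 5 libraries were above every control and 1 was within their range. Irs2 rose by 1.19 at 1 Hz (SE 0.436, adjusted p = 0.037) and by 1.56 at 4 Hz (SE 0.437, adjusted p = 0.0057), the largest changes among the 10 genes at both frequencies. The call at 1 Hz was lost without any 1 of control replicates 3, 4 or 5 or of 1 Hz replicates 1, 2, 3 or 4 (adjusted p 0.061 to 0.083). It was also lost without the 4 libraries rich in mitochondrial counts (1.20, adjusted p = 0.083). The call at 4 Hz held without those 4 libraries. It also held when any single control or 4 Hz replicate was left out (adjusted p 0.0035 to 0.016). At 10 Hz the change was -0.02, but its interval ran from -0.92 to 0.87. On log2(TPM + 1) limma did not call Irs2 at 1 Hz (0.76, adjusted p = 0.077) and called it at 4 Hz (1.06, adjusted p = 0.0092).

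The spread of Irs2 within a group was as wide as its changes between groups. Its coefficient of variation was 51.9% in the controls and 63.2% at 10 Hz, where the median gene had 10.4% and 12.7%, and 1.85% and 1.42% of genes tested varied more. In the controls, replicates 1, 2 and 6 held 14.1, 17.0 and 15.4 CPM, and replicates 3, 4 and 5 held 3.47, 6.58 and 7.43. At 10 Hz, replicates 3, 4 and 5 held 16, 15.9 and 17.7 CPM, and replicates 1, 2 and 6 held 6.77, 2.26 and 4.91. So each of these groups had a high and a low set of 3 cultures. At 1 and 4 Hz a single library was lowest, 1 Hz replicate 5 at 6.44 CPM and 4 Hz replicate 6 at 15.8. No label separates these cultures.

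The gene whose centred log2 CPM lay closest to that of Irs2 over the 24 libraries was Dnajb1, which encodes a heat shock protein of the Hsp40 family that works with Hsp70. The root mean square difference was 0.27, against 1.126 for the deviations of Irs2 itself. Dnajb1 had 131 to 774 CPM in the controls, 168 to 1240 at 1 Hz, 617 to 1400 at 4 Hz and 151 to 788 at 10 Hz. Its high and low libraries were those of Irs2: 682, 682 and 774 CPM in control replicates 1, 2 and 6, and 131, 307 and 285 in replicates 3, 4 and 5. The same held at 10 Hz, where replicates 3, 4 and 5 had 745, 552 and 788 CPM and replicates 1, 2 and 6 had 322, 151 and 252. Dnajb1 was also lowest in 1 Hz replicate 5 (168) and 4 Hz replicate 6 (617). Dnajb1 was picked for its closeness to Irs2 over these same libraries, so a match of high and low libraries follows from that choice. It is no separate evidence of a link. This is a description over 24 libraries that share culture, handling and library preparation.

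**Figure D3:**
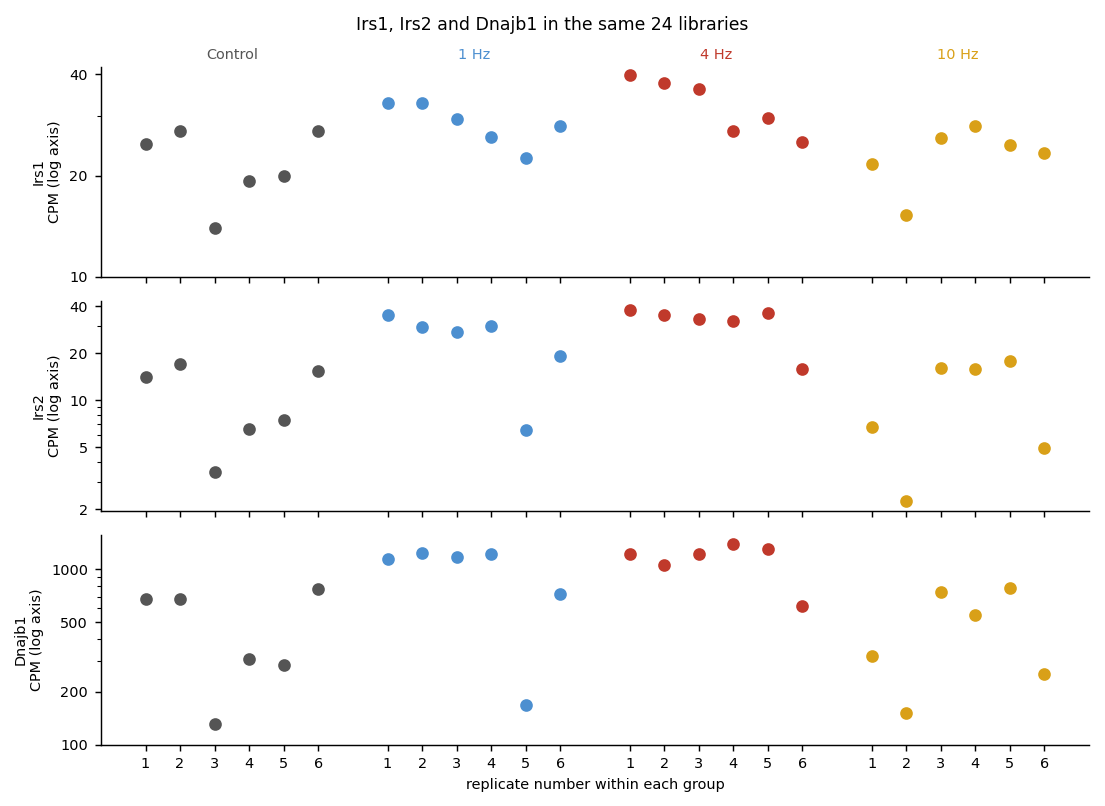
Irs1, Irs2 and Dnajb1 in the same 24 libraries, in CPM on log axes. Each point is a library, placed by group and replicate number, and the numbers carry no order. The low points of Irs2 (control replicates 3, 4 and 5, 1 Hz replicate 5, 4 Hz replicate 6, 10 Hz replicates 1, 2 and 6) are also the low points of Dnajb1, and the Irs1 points spread less. Dnajb1 was picked as the gene closest to Irs2 over these libraries, so their match follows from the choice.

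The balance between the adaptors moved at 4 Hz. In the controls Irs1 was above Irs2 within libraries, with a log2 TPM ratio of 0.67 ± 0.53, and at 4 Hz it was below, at -0.47 ± 0.34 (SD, n = 6). The difference was -1.15, with all 6 libraries below every control (exact permutation test, two-sided, p = 0.0022, the smallest that 6 against 6 can give, adjusted p = 0.0081). At 1 Hz the difference was -0.83 with 5 of 6 below every control (exact permutation p = 0.056, adjusted p = 0.17), and it was -1.11 (adjusted p = 0.013) without 1 Hz replicate 5. At 10 Hz the ratio was 0.90 ± 0.93, and its difference from the controls was 0.23 (exact permutation adjusted p = 0.84).

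Around the receptors, 12 of 13 listed adaptors and inhibitors were tested, and 3 rose and 2 fell at 1 Hz, 4 rose and 3 fell at 4 Hz, where 19.2% and 27.5% of all genes rose and 18.1% and 23.9% fell. Without the 4 libraries rich in mitochondrial counts, 1 rose and 1 fell at 1 Hz and 3 rose and 3 fell at 4 Hz. Socs1, an inhibitor of cytokine and insulin signalling induced by cytokines, rose from 1.98 ± 0.687 to 4.44 ± 1.19 CPM at 4 Hz. All 6 of its libraries were above the controls, as for 12.9% of all genes tested. The phosphatase gene Ptpn1, whose product PTP1B removes phosphate from the insulin receptor, fell from 87.4 ± 3.6 to 63.5 ± 6.9 CPM at 1 Hz and 59.6 ± 5.31 at 4 Hz. All 6 of its libraries lay below the controls at both, as for 1142 of 13315 genes tested at 1 Hz and 1958 at 4 Hz. Ptpn2, a relative of Ptpn1, had 58.3 ± 2.7 CPM in the controls and rose to 68.1 ± 4.48 at 4 Hz. The adaptor Shc1 fell at 4 Hz from 185 ± 8.4 to 162 ± 7.91 CPM. Neither Ptpn1 nor Ptpn2 was called at 4 Hz on log2(TPM + 1), and Ptpn1 was not called there with library medians removed either.

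Pik3r1 (ENSMUSG00000041417, chr13:101817071-101904725, minus strand) encodes p85alpha, the regulatory subunit that carries PI3K to the adaptors. Its level was 30.8 to 35.2 CPM in the controls (median 33.5), 36.2 to 57.0 at 1 Hz (43.1), 36.2 to 61.5 at 4 Hz (50.5) and 28.2 to 40.8 at 10 Hz (38.1). In CPM every library at 1 and 4 Hz was above every control, which 5.55% and 12.9% of all genes tested showed at these frequencies. In TPM 4 libraries were above and 2 below every control at 1 Hz, and 4 were above at 4 Hz. Pik3r1 rose by 0.43 at 1 Hz (SE 0.112, adjusted p = 0.0038) and by 0.61 at 4 Hz (SE 0.112, adjusted p = 9.2e-05). At 10 Hz it changed by 0.12 (interval -0.1 to 0.34), with 4 libraries above the controls and 1 below. On log2(TPM + 1) limma called Pik3r1 at neither 1 Hz (0.23, adjusted p = 0.31) nor 4 Hz (0.35, adjusted p = 0.088).

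Pik3r3, which encodes p55gamma, another regulatory subunit, moved the other way and fell by 1.18 at 1 Hz (adjusted p = 6.9e-09) and fell by 1.43 at 4 Hz (adjusted p = 1.6e-10), from 63.9 ± 5.49 CPM in the controls to 28.2 ± 3.68 and 23.8 ± 3.25. All 6 libraries at each of these frequencies were below every control, as for 1142 and 1958 of the 13315 genes tested. In the list of PI3K, Akt and their phosphatases, 15 of 16 genes were tested, with 4 up and 3 down at 1 Hz and 3 up and 4 down at 4 Hz, and without the 4 libraries rich in mitochondrial counts 3 up and 1 down, then 5 up and 4 down, beside the 19.2% and 27.5% of all genes that rose and the 18.1% and 23.9% that fell. Trib3, a pseudokinase that can bind Akt, rose from 118 ± 18.1 to 206 ± 32.3 CPM at 4 Hz. Sgk1, a kinase related to Akt, rose from 106 ± 26.4 to 232 ± 35.9 CPM at 4 Hz.

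Akt1 (ENSMUSG00000001729, chr12:112620248-112645654, minus strand) and Akt2 (ENSMUSG00000004056, chr7:27284378-27340262, plus strand) encode the kinases at the centre of the chain. Akt1 had 212 to 242 CPM in the controls (median 218), 176 to 224 at 1 Hz (207), 181 to 250 at 4 Hz (221) and 220 to 236 at 10 Hz (225). Akt2 had 250 to 280 CPM in the controls (median 257), 203 to 254 at 1 Hz (236), 227 to 272 at 4 Hz (258) and 230 to 263 at 10 Hz (248). In CPM the groups overlapped for both genes, and neither passed at any frequency in the main edgeR fit. On log2(TPM + 1) limma called both lower at 1 and at 4 Hz, as it did 21.9% and 35.9% of all genes. At 4 Hz the change was -0.02 for Akt1 (interval -0.16 to 0.12) and -0.05 for Akt2 (interval -0.17 to 0.08). The Akt2 change at 1 Hz was -0.15 (adjusted p = 0.06), and it passed without control replicate 4, 1 Hz replicate 2 or 1 Hz replicate 4 (adjusted p 0.021 to 0.05), and under DESeq2 (-0.16, adjusted p = 0.02). In edgeR it also passed with RLE size factors (adjusted p = 0.04) and with a stricter filter on low counts (adjusted p = 0.039).

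In the controls Akt2 stood at 153 ± 5.55 TPM and Akt1 at 138 ± 3.1. The log2 TPM ratio of Akt1 to Akt2 was -0.15 ± 0.04 in the controls and 0.01 ± 0.09 at 10 Hz, where all 6 libraries were above the controls (difference 0.16, exact permutation p = 0.0022, adjusted p = 0.0081). On estimated counts, which are not divided by transcript length, that difference was 0.11 and did not pass (exact permutation adjusted p = 0.11). The Akt1 locus overlaps Siva1 (26.0 CPM) and Zbtb42 (16.5 CPM) on the opposite strand. How counting used the strand is not given in the sources used here.

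The FoxO genes did not move alike. Foxo1 (ENSMUSG00000044167, chr3:52175757-52260642, plus strand) had 27.9 to 36.3 CPM in the controls (median 30.8), 42.1 to 51.1 at 1 Hz (45.3), 52.1 to 64.1 at 4 Hz (57.6) and 24.6 to 35.4 at 10 Hz (29.4). In CPM its 1 and 4 Hz libraries all lay above every control, as for 5.55% and 12.9% of all genes tested. Its 4 Hz libraries also all lay above every 1 Hz library in CPM. In TPM 4 libraries at 1 Hz and 6 at 4 Hz were above every control. There the 1 Hz range (5.4 to 8.42) overlapped the 4 Hz range (6.88 to 9.83). Foxo1 rose by 0.58 at 1 Hz (SE 0.083, adjusted p = 7.8e-06) and by 0.90 at 4 Hz (SE 0.083, adjusted p = 8e-09). At 10 Hz the change was -0.06 (interval -0.23 to 0.1).

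Foxo3 (ENSMUSG00000048756, chr10:42057837-42154007, minus strand) had 80.4 to 99.2 CPM in the controls (median 90.8), 119 to 145 at 1 Hz (131), 125 to 163 at 4 Hz (150) and 76.8 to 100 at 10 Hz (88.8). Again every library at 1 and 4 Hz was above every control in CPM, as for 5.55% and 12.9% of all genes tested. In TPM 5 libraries were above every control at each of these frequencies. Foxo3 rose by 0.57 at 1 Hz (SE 0.077, adjusted p = 4.2e-06) and by 0.72 at 4 Hz (SE 0.078, adjusted p = 7.3e-08). At 10 Hz it changed by 0.01 (interval -0.14 to 0.16).

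Foxo4 (ENSMUSG00000042903, chrX:100298073-100304479, plus strand) had 29.8 to 39.4 CPM in the controls (median 32.5), 32.4 to 38.8 at 1 Hz (34.8), 38.2 to 43.4 at 4 Hz (40.6) and 32.6 to 37.3 at 10 Hz (33.9). At 4 Hz 4 libraries were above every control, and at 1 and 10 Hz 0 were. Foxo4 rose at 4 Hz by 0.26 (SE 0.071, adjusted p = 0.0038), and at 1 Hz the change was 0.06 (interval -0.08 to 0.2). On the TPM scale the 4 Hz change was -0.05 and not called.

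Foxo6, the FoxO gene known best from the brain, moved the other way and fell by 0.49 at 1 Hz (adjusted p = 0.00042) and fell by 0.34 at 4 Hz (adjusted p = 0.0066). In the controls it stood at 19.0 ± 2.81 TPM, between Foxo3 at 23.5 ± 1.54 and Foxo4 at 17.2 ± 1.69 and with its range overlapping both, and Foxo1 was lower at 5.48 ± 0.549. At 4 Hz Foxo6 had 12.1 ± 2.73 TPM. Within libraries, which removes any common scaling, the log2 TPM ratio of Foxo4 to Foxo3 went from -0.46 ± 0.18 in the controls to -0.97 ± 0.13 at 1 Hz and -0.93 ± 0.11 at 4 Hz. The differences of -0.51 and -0.47 each had all 6 libraries below every control (exact permutation p = 0.0022 and adjusted p = 0.0081 for each). The ratio of Foxo1 to Foxo3 differed by -0.01 at 1 Hz and 0.15 at 4 Hz (exact permutation adjusted p = 0.95 and 0.23), and a difference between these genes in how far they moved was not detected with 6 libraries a group.

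Of the 11 other genes in a list of FoxO relatives and regulators, 1 rose and 6 fell at 1 Hz, and 0 rose and 8 fell at 4 Hz, with a median change of -0.44 at 4 Hz against 0.06 over all genes. Of all genes tested, 19.2% rose and 18.1% fell at 1 Hz, and 27.5% rose and 23.9% fell at 4 Hz. On log2(TPM + 1) 10 of the list fell and 0 rose at 4 Hz, where 35.9% of all genes fell and 5.83% rose. Without the 4 libraries rich in mitochondrial counts 4 of the list fell and 1 rose at 1 Hz, and again 8 fell and 0 rose at 4 Hz. Stk4, which encodes the kinase MST1 that phosphorylates FoxO, fell from 57.6 ± 4.23 to 36.3 ± 7.39 CPM at 1 Hz and 31.1 ± 5.08 at 4 Hz. The 14-3-3 protein gene Ywhab, whose product holds phosphorylated FoxO in the cytoplasm, fell from 189 ± 11.6 to 139 ± 12.8 CPM at 1 Hz and 118 ± 13.0 at 4 Hz. For both genes all 6 libraries at 1 and at 4 Hz lay below every control, as for 1142 and 1958 of the 13315 genes tested. The gene that rose at 1 Hz was Sirt1, a deacetylase that acts on FoxO (0.34, adjusted p = 0.0074), named here after its values were seen.

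Of 24 genes listed as FoxO targets, 15 rose and 3 fell at 1 Hz, 17 rose and 1 fell at 4 Hz, and 0 were called at 10 Hz by edgeR. Their median changes in the same order were 0.35, 0.45 and -0.04, beside medians over all genes of 0.04, 0.06 and 0.01. Of all genes tested, 19.2% rose and 18.1% fell at 1 Hz, 27.5% rose and 23.9% fell at 4 Hz, and 0.0376% were called at 10 Hz. On log2(TPM + 1) the targets split 8 up and 3 down at 1 Hz and 12 up and 4 down at 4 Hz. On that scale 3.58% of all genes rose and 21.9% fell at 1 Hz, and 5.83% rose and 35.9% fell at 4 Hz. Without the 4 libraries rich in mitochondrial counts the targets split 12 up and 3 down, then 16 up and 1 down. The count of 0 at 10 Hz depended on the fit: Trim63, Pdk4 and Bcl6 were called lower by DESeq2 and in the edgeR fit of only the 2 groups, and Trim63 and Pdk4 without a filter and without those 4 libraries. Bcl2l11, which encodes the cell death protein Bim, rose from 13.2 ± 1.9 CPM to 29.1 ± 5.32 at 1 Hz and 38.4 ± 4.44 at 4 Hz (log2 1.14 and 1.54). Cited2, a transcriptional coregulator, rose from 84.4 ± 9.67 CPM to 209 ± 19.7 and 226 ± 31.0. Each had all 6 libraries at both frequencies above every control, as for 5.55% of all genes tested at 1 Hz and 12.9% at 4 Hz.

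The pair of ubiquitin ligases most used as atrophy markers parted within that list. Fbxo32 (atrogin-1) rose by 0.65 at 1 Hz (adjusted p = 0.0018) and by 0.82 at 4 Hz (adjusted p = 0.0001), and is named after its values were seen. Fbxo32 was not called at 1 Hz on log2(TPM + 1). Trim63 (MuRF1) fell by 0.44 at 1 Hz (adjusted p = 0.0025) and fell by 0.29 at 4 Hz (adjusted p = 0.027, a call lost with upper-quartile factors), with a control level of 76.9 ± 9.07 CPM. At 10 Hz Trim63 stood at 53.0 ± 4.1 CPM with all 6 libraries below every control, which 0.864% of genes tested showed, and the change of -0.54 did not pass in the edgeR fit of all 4 groups (adjusted p = 0.078) but passed in the 4 other settings named for these targets.

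**Figure D4:**
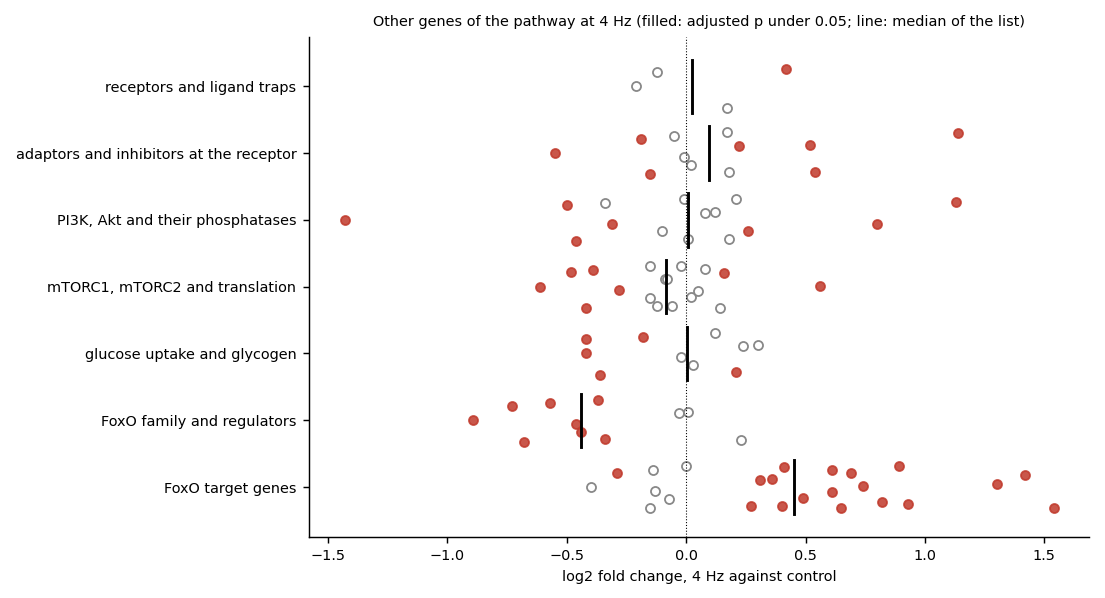
The log2(fold change) at 4 Hz of the 94 tested genes in 7 lists of the pathway that hold none of the 10 genes above. Filled points were called, and the line is the median of each list. FoxO targets lie mostly to the right (17 up, 1 down) and FoxO relatives and regulators to the left (0 up, 8 down), and the other lists hold both directions. Of all genes tested, 27.5% rose and 23.9% fell.

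Eif4ebp1 (ENSMUSG00000031490, chr8:27750350-27805206, plus strand) encodes 4E-BP1, which holds the cap-binding protein eIF4E until mTORC1 phosphorylates it. Its level was 165 to 206 CPM in the controls (median 188), 212 to 274 at 1 Hz (222), 232 to 298 at 4 Hz (252) and 203 to 232 at 10 Hz (208). In CPM all libraries at 1 and 4 Hz were above every control, as for 5.55% and 12.9% of all genes tested, and 3 at 10 Hz were. In TPM 3 libraries were above every control at 1 Hz, 5 at 4 Hz and 6 at 10 Hz. There 1 library at 4 Hz was below every control. Eif4ebp1 rose by 0.32 at 1 Hz (SE 0.073, adjusted p = 0.0014) and by 0.47 at 4 Hz (SE 0.073, adjusted p = 9.6e-06). At 10 Hz the change was 0.21, with an interval of 0.06 to 0.35, an unadjusted p of 0.0091 and an adjusted p of 0.42. On log2(TPM + 1) the gene was not called at any frequency. There limma gave 0.14 at 1 Hz (adjusted p = 0.24), 0.20 at 4 Hz (adjusted p = 0.067) and 0.19 at 10 Hz.

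Its relative Eif4ebp2 fell, from 124 ± 6.54 to 92.4 ± 11.8 CPM at 1 Hz and 88.3 ± 7.03 at 4 Hz. All 6 libraries lay below every control at both, as for 1142 and 1958 of the 13315 genes tested. Of the 18 tested genes for mTORC1, mTORC2 and translation, 1 rose and 5 fell at 1 Hz, and 2 rose and 5 fell at 4 Hz, where 18.1% and 23.9% of all genes fell. Without the 4 libraries rich in mitochondrial counts 1 rose and 4 fell at 1 Hz. The scaffold gene Eif4g1 fell from 647 ± 43.6 to 484 ± 27.7 CPM at 4 Hz, while Rps6, a ribosomal protein and target of S6 kinase, rose from 1090 ± 67.6 to 1610 ± 276, and the initiation factor gene Eif4b rose by 0.16 at 4 Hz, which was not called on log2(TPM + 1). Of 10 genes for glucose uptake and glycogen, 0 rose and 3 fell at 1 Hz, and 1 rose and 4 fell at 4 Hz, beside the same shares of all genes. Without the 4 libraries rich in mitochondrial counts 1 fell at 1 Hz, and 1 rose and 3 fell at 4 Hz. Hk2, the hexokinase of muscle, fell by 0.42 at 4 Hz (adjusted p = 0.00013), and Gys1, muscle glycogen synthase, rose by 0.21 (adjusted p = 0.032). At 10 Hz all 6 libraries lay below every control for Gys1, as for 0.864% of all genes tested, but its change of -0.17 did not pass (adjusted p = 0.59). On log2(TPM + 1) 0 of these 10 genes rose and 5 fell at 4 Hz, where 5.83% of all genes rose and 35.9% fell.

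In TPM, the order of the 10 genes in the controls was Eif4ebp1 (296 ± 26.9), Akt2, Akt1, Foxo3, Foxo4, Pik3r1 (7.89 ± 0.942), Foxo1, Insr (3.93 ± 0.563), Irs1 (3.67 ± 0.792) and Irs2 (2.58 ± 1.3). The control ranges of neighbours did not overlap, except those of Insr with Irs1 and of Irs1 with Irs2. So the kinases and the translation repressor were at levels far above those of the receptor and its adaptors. At 4 Hz, Irs2 had 6.21 ± 1.8 TPM and Irs1 4.36 ± 0.947.

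Between 4 and 1 Hz, 0 of the 10 genes were called by edgeR, by DESeq2 or by limma, and by edgeR 0.0% of all genes were. At an unadjusted p under 0.05 edgeR gave 3 of the 10 and 1465 genes in all. By edgeR's quasi-likelihood test these were Foxo1 (0.32, adjusted p = 0.26), Foxo4 (0.20, adjusted p = 0.38) and Eif4ebp1 (0.16, adjusted p = 0.44). For Foxo1 all 6 libraries at 4 Hz were above all 6 at 1 Hz in CPM, which 0.195% of all genes showed, whereas its TPM ranges overlapped. Without the 4 libraries rich in mitochondrial counts, 1408 genes and 1 of the 10 were called, Eif4ebp1 (0.25, adjusted p = 0.04), and Foxo1 had an adjusted p of 0.055.

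Between 10 and 4 Hz, which uses the same 4 Hz libraries as above, the 8 genes raised at 4 Hz were lower at 10 Hz (24.4% of all genes were lower, 46.3% called, and with the fold threshold 3 of the 10 and 10.6% of all genes), with Foxo1 at -0.96 (adjusted p = 5.3e-09), Foxo3 at -0.71 (adjusted p = 1.7e-07) and Irs2 at -1.59 (adjusted p = 0.0068). For Foxo1, Foxo3 and Foxo4 all 6 libraries at 10 Hz were below all 6 at 4 Hz in CPM, as for 8.10% of all genes. In TPM this held for Foxo1, and the ranges of Foxo3 and Foxo4 overlapped. Foxo4 lost the call without 10 Hz replicate 6 (adjusted p = 0.054).

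Between 10 and 1 Hz, 5 of the 10 were lower (13.1% of all genes were lower, 27.9% called), and with the fold threshold 3 (4.99%). Foxo1 differed by -0.64 (adjusted p = 5e-06) and Foxo3 by -0.56 (adjusted p = 1.2e-05), with no overlap of the libraries in CPM, as for 2.67% of all genes. The TPM ranges overlapped for both. Insr (-0.32, adjusted p = 0.023) lost the call without 10 Hz replicate 2 or 5 or 1 Hz replicate 1 (adjusted p 0.054 to 0.064). Irs2 (-1.22, adjusted p = 0.046) lost it without the 4 libraries rich in mitochondrial counts (adjusted p = 0.11), and without 10 Hz replicate 1, 2 or 6 or without any 1 Hz replicate but 5 (adjusted p 0.058 to 0.11). Pik3r1 (-0.31, adjusted p = 0.04) lost it without any 10 Hz replicate but 4, or without 1 Hz replicate 1, 2, 5 or 6 (adjusted p 0.051 to 0.12). With the replicate number as a block, 3 of the 10 were called here.

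The scale bears on several calls, and not only on those of the smaller changes. The calls of Pik3r1 and Irs1 at 4 Hz and of Irs2 at 1 Hz did not hold on log2(TPM + 1). On log2(TPM + 1), tested with limma, the median of all genes shifted by -0.14, -0.21 and -0.01 as the frequency went from 1 to 4 to 10 Hz, whereas TMM-scaled counts gave 0.04, 0.06 and 0.01. On that scale most calls were lower: 3.58% of all genes were called higher and 21.9% lower at 1 Hz, and 5.83% higher and 35.9% lower at 4 Hz. There 4 of the 10 genes were called at 1 Hz, 2 higher and 2 lower, and 5 at 4 Hz, 3 higher (Foxo1, Foxo3, Irs2) and 2 lower (Akt1 at -0.37, adjusted p = 0.019, and Akt2 at -0.42, adjusted p = 0.0034). Relative to the median of all genes on that scale, the 4 Hz changes were 0.71 for Foxo1, 0.61 for Foxo3, 1.26 for Irs2, 0.55 for Pik3r1, 0.41 for Irs1 and 0.40 for Eif4ebp1. By the same measure Foxo4 stood at 0.16 and Insr at 0.20, where their unadjusted TPM changes were -0.05 and -0.01, and Akt1 stood at -0.16 and Akt2 at -0.21. With the median of each library removed before the test, 8 of the 10 were again called higher at 4 Hz.

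**Figure D5:**
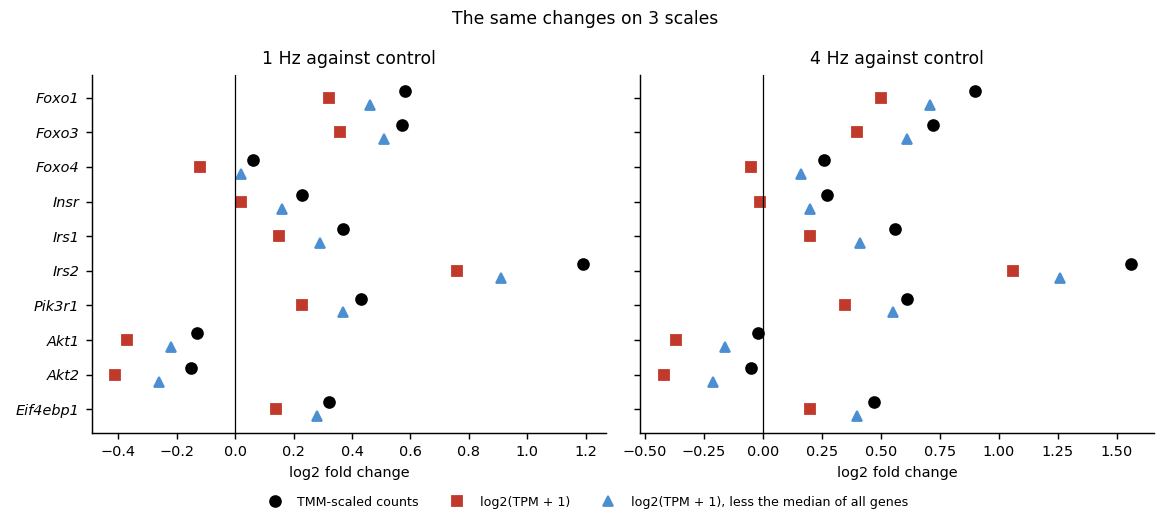
The log2(fold change) of each gene at 1 and 4 Hz on 3 scales: TMM-scaled counts (circles), log2(TPM + 1) (squares), and log2(TPM + 1) less the median change of all genes (triangles). Foxo1, Foxo3 and Irs2 lie right of 0 on all 3 scales, Foxo4 crosses 0 at both frequencies and Insr at 4 Hz, and Akt1 and Akt2 lie left of 0 in both panels.

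Among all genes tested outside the 10, those closest to each upregulated gene in centred log2 CPM over the 24 libraries, by root mean square difference, were Lpin1 for Foxo1 (0.121), Pramel12 for Foxo3 (0.095), Nfe2l1 for Foxo4 (0.088), Glg1 for Insr (0.112), Bach1 for Irs1 (0.128), Dnajb1 for Irs2 (0.27), Arhgap28 for Pik3r1 (0.155) and Mif for Eif4ebp1 (0.074). Lpin1, which encodes the phosphatidate phosphatase lipin-1, had 49.7 to 63.7 CPM in the controls, 64.5 to 99.8 at 1 Hz, 92.0 to 110 at 4 Hz and 42.7 to 64.5 at 10 Hz. Pramel12 had 49.8 to 68.7 CPM in the controls, 75.6 to 97.4 at 1 Hz, 81.8 to 107 at 4 Hz and 52.0 to 64.8 at 10 Hz. As for Foxo1 and Foxo3, the 1 and 4 Hz libraries of both lay above every control, which 5.55% and 12.9% of all genes tested showed. Both were picked for closeness to those genes over the same libraries, so this likeness follows from the choice.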

How the data were processed

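RNA of 24 C2C12 cultures, 6 per group, was sequenced by the authors as read pairs after poly(A) selection. The labels add ribodepletion for low-input samples without saying which. Reads went through nf-core/rnaseq on GRCm39, and the authors deposited the salmon estimated count of each gene, not normalized, and the TPM of each gene, scaled per library to transcript length and a common total. The submitters' processing notes also name BWA, STAR and bedtools. Genes without counts are listed, so a filter on low counts is not apparent.

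Estimated counts were rounded, filtered (filterByExpr, minimum count 10, minimum total 15), scaled by TMM and tested in edgeR 4.0.16 (R 4.3.3, quasi-likelihood, robust) with a mean per group over all 24 libraries, adjusted over 13315 genes. At this depth the biological coefficient of variation was 14.8%, and in simulated 1 Hz libraries with 12511 genes, 98 of 100 genes changed by a log2 of 1 and 54 of 100 changed by 0.5 were recovered, with 16 false calls. The simulation held only control and 1 Hz libraries and gave every gene the same spread, so it does not cover more variable genes. Intervals are 1.96 SE each side. DESeq2 1.42.0 (Wald) and limma 3.58.1 on log2 TPM were alternatives, with other size factors, filters, samples and a replicate block. Ratios of TPM within libraries were compared by exact permutation tests in scipy 1.17.1 (5 ratios, 3 frequencies). Replicate pairs of 1 group differed beyond sampling noise (chi-square per degree of freedom 4.83 to 79.4 over 60 pairs), so all count as separate. Positions come from GENCODE M39, which held 98.9% of the gene identifiers.

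The 10 genes, the 7 lists (98 genes) and the marker lists were chosen with earlier results of these data known. Named list genes are up to 2 per direction with the smallest p at 4 Hz among those called in each list, the same at 10 Hz (none called), the relatives Igf1r and Foxo6, and the nearest gene of each upregulated member. Igf1, Igf2, Sirt1, Fbxo32, Pdk4 and Bcl6 were named after their values were seen. Insrr, Irs4, Pik3cg and Eif4ebp3 were too low to test. Some genes that this rule names are not reported here. Protein sequences were not used here.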

Additional observations from a re-analysis of the deposited data

Results flagged for a closer look

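In 3 of 40 sets of 6 libraries (10 genes in 4 groups), 1 library stood apart by Dixon's ratio (critical value 0.625), where chance gives about 1 in 20. Foxo1 in control replicate 6 was 36.3 CPM against 27.9 to 31.0 in the other controls, with a ratio of 0.63. Akt1 in control replicate 1 was 242 CPM against 212 to 221, with a ratio of 0.72. Irs2 in 4 Hz replicate 6 was 15.8 CPM against 32.2 to 37.5, with a ratio of 0.756, and that library is also one of the 4 rich in mitochondrial counts.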

How the results depend on the processing

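At 1 Hz the number of the 10 genes called was 5, and 4 to 7 under the alternatives other than the fold threshold, which gave 3. At 4 Hz it was 8, and 6 to 8 except for 5 with limma on log2(TPM + 1), 5 on log2(TPM + 0.1) and 5 with the fold threshold. At 10 Hz it was 0 in each. Between 4 and 1 Hz it was 0, except for 1 without the 4 libraries rich in mitochondrial counts, a setting chosen after seeing the data, as was the removal of library medians. Between 10 and 1 Hz, 5 became 2 without a filter, 2 with only the 2 groups compared, 3 on log2(TPM + 1), 2 on log2(TPM + 0.1), 3 with the fold threshold and 2 to 5 when single libraries were left out, the lowest without 10 Hz replicate 2 or 1 Hz replicate 1. Between 10 and 4 Hz, 8 became 5 on both TPM scales and 3 with the fold threshold. The cause was not tested. With the replicate number as a block, 4 were called at 1 Hz, 8 at 4 Hz, 3 between 10 and 1 Hz and 8 between 10 and 4 Hz. Irs2 was the gene lost at 1 Hz (adjusted p = 0.079). Same-numbered libraries did not deviate together (r -0.207 to 0.143 over 36 pairs, 3 of them over 0.1, and 1 of 24 libraries correlated best with its own number), so the numbers were not taken to pair cultures.

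These changes reversed sign. On log2(TPM + 1) and log2(TPM + 0.1), Foxo4 was -0.12 and -0.13 at 1 Hz, -0.05 and -0.05 at 4 Hz, 0.16 and 0.17 between 10 and 1 Hz, and 0.09 and 0.09 between 10 and 4 Hz. Insr was -0.01 and -0.02 at 4 Hz, and -0.03 and -0.03 between 4 and 1 Hz, where Akt1 and Akt2 were -0.01 on both. Eif4ebp1 was 0.05 on both between 10 and 1 Hz, and Akt2 0.29 on both between 10 and 4 Hz (adjusted p = 0.04). Without the libraries rich in mitochondrial counts, Akt1 was 0.05 at 4 Hz and -0.02 between 10 and 4 Hz, and Insr -0.09 between 4 and 1 Hz. Akt1 at 4 Hz was 0.01 with upper-quartile factors, and Akt2 between 10 and 4 Hz 0.01 without a filter. With single libraries left out, the ranges that crossed 0 were, against the control, -0.09 to 0.01 for Akt1 at 4 Hz, and at 10 Hz -0.02 to 0.05 for Foxo3, -0.03 to 0.16 for Irs1 and -0.23 to 0.18 for Irs2. They were -0.02 to 0.12 for Insr between 4 and 1 Hz, -0.04 to 0.01 for Foxo4 between 10 and 1 Hz, and -0.06 to 0.01 for Akt2 between 10 and 4 Hz. On estimated counts the log2 ratios of Foxo1 to Foxo3 (0.01) and of Insr to Igf1r (-0.17) at 1 Hz also reversed, whereas that of Akt1 to Akt2 at 10 Hz kept its direction at 0.11 but no longer passed. With single libraries left out, the Irs1 to Irs2 ratio at 1 Hz kept its sign (-1.11 to -0.67), and the ranges that crossed 0 were -0.03 to 0.42 for Irs1 to Irs2 at 10 Hz, Foxo1 to Foxo3 at 1 Hz -0.05 to 0.02, Foxo4 to Foxo3 at 10 Hz -0.06 to 0.07, and Insr to Igf1r -0.06 to 0.09, -0.21 to 0.04 and -0.1 to 0.05 at 1, 4 and 10 Hz.

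Irs2, at a control median of 10.8 CPM and the widest spread, had the widest intervals. In the simulation 54 of 100 changes of 0.5 were recovered at this depth. Every simulated gene had the same spread, so this does not give the recovery for a gene as variable as Irs2.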
